A study of Mus musculus with 4 samples.

Results

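The genes described here encode the machinery of DNA replication, from the licensing of origins to nucleotide supply. They were chosen by symbol from knowledge of the pathway, 49 in all, with earlier results of these data known. All 49 were found among the 19935 genes that the arrays measured with probe sets of 1 symbol. Transcripts were measured in Ba/F3, a mouse pro-B cell line that depends on interleukin-3 (IL-3), on 4 Affymetrix Gene 1.0 ST arrays. A derived line in which doxycycline, given at 500 ng/ml, induces BCR-ABL, the fusion kinase of chronic myeloid leukaemia, gave 1 array from cells grown with IL-3 and 2 arrays from cells grown without it, called A and B. Parental Ba/F3 cells grown with IL-3 gave 1 array, and no doxycycline is named for them. All cultures were in logarithmic growth. The labels state neither whether the derived line is a single clone nor whether A and B are separate cultures. The p-values therefore cover the spread between A and B alone, moderated over all genes, and that spread may be technical. The lone parental array and the lone array with IL-3 add no measure of spread.

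Each value is a difference from the parental array, which is 0 throughout by construction, and was read as log2. Absolute levels were therefore not analysed, no gene's level can be set against another's, and the cell type could not be checked from the levels of its markers. The median difference over 28815 probe sets was 0.0029 on the array with IL-3, -0.0016 on A and -0.064 on B. In BCR-ABL cells without IL-3, 2 of 27 measured markers of pro-B cells and other cell types were called higher than in parental cells. They were the mast cell genes Cpa3 (3.04) and Hdc (0.74). Called lower were 2, the erythroid genes Hbb-y (-2.55) and Klf1 (-0.92). Over all genes 5.19% were called higher and 2.87% lower. The other mast cell genes, Mcpt8 (-0.29), Kit (-0.17) and Fcer1a (0.00052), were not called. Medians over the marker lists in that comparison were -0.09 for 8 pro-B and IL-3 receptor genes, -0.92 for 3 erythroid genes, 0.00052 for 5 mast cell genes, 0.0092 for 5 neutrophil and monocyte genes, -0.12 for 3 T cell genes and -0.11 for 3 fibroblast genes. Their part in the results was not tested.

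Replication is prepared in G1, when the origin recognition complex, with Cdc6 and Cdt1, loads the MCM helicase onto DNA. At the start of S phase the Cdc7-Dbf4 kinase, Cdc45 and the GINS complex turn the loaded helicase on, and polymerases, clamp and clamp loader follow. Many of these genes are activated together by E2F transcription factors when growth factor signals, or an oncogenic kinase in their place, release E2F from the retinoblastoma family.

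The E2F recognition element was looked for in promoters because it is the textbook link between these genes. It was searched as TTTGGCGC, TTTCCCGC, TTTCGCGC or TTTGCCGC on either strand, with overlapping matches counted apart, in RefSeq promoters of build GRCm38.p6 that run from 250 bases before to 50 after an annotated start. Promoters were found for 41 of the 49 genes, and 17 of the 41 held a match at 1 of their starts. By promoter this was 17 of 53, or 32.1%, against 2.26% of all 32851 promoters in the table. Of 45 matched genes from a second list of replication genes, described further on, 14 held a match. The stretches below lie before the start, run 5′ to 3′ on the gene's strand, and carry the match in capitals. Those of Orc1, Cdc6, Mcm5, Mcm6 and Mcm7 show the element in licensing genes.
Orc1, chr4:108579403-108579453, plus strand: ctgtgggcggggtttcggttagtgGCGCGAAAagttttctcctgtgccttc
Cdc6, chr11:98907989-98908044, plus strand: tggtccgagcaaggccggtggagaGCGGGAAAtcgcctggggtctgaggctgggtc
Mcm5, chr8:75109332-75109391, plus strand: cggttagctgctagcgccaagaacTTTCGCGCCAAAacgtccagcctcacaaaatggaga
Mcm6, chr1:128359721-128359839, minus strand: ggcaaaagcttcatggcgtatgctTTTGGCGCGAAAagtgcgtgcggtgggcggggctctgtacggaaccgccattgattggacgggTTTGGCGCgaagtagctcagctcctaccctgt
Mcm7, chr5:138172017-138172072, minus strand: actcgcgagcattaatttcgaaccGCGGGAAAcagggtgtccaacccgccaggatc
In Mcm5 and Mcm6 matches on both strands overlap in a single run. Orc3, Rfc3 and Pola1 are shown as genes of the other steps, or of the same complex, that carry it too.
Orc3, chr4:34614952-34615007, minus strand: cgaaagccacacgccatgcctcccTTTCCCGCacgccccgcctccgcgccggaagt
Rfc3, chr5:151651209-151651242, minus strand: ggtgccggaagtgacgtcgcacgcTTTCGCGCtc
Pola1, chrX:93632262-93632317, minus strand: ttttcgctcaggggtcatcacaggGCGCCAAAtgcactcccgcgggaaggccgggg
The 80 bases before the start of Orc2 and Rrm2 are shown too, picked by their values. Among the 49 genes they had the highest values on each BCR-ABL array, and they had no match in the window searched. Whether E2F acts on any of these genes was not tested.
Orc2, chr1:58505110-58505189, minus strand: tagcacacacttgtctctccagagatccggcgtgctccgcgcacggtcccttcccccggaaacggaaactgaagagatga
Rrm2, chr12:24708174-24708253, plus strand: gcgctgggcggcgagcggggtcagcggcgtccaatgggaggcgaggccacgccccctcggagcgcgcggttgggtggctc

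**Figure D1:**
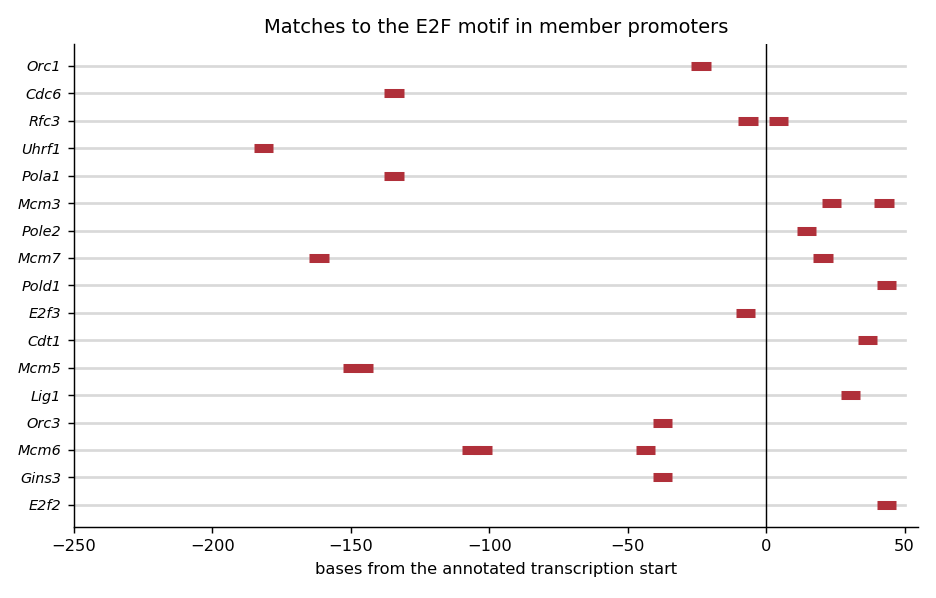
Each row is 1 of the 17 genes whose promoter held the E2F element, ordered from the highest difference between BCR-ABL cells without IL-3 and parental cells at the top. Red bars mark the matches by their distance in bases from the annotated start (black line), and they lie on both sides of it, with overlapping matches merged in Mcm5 and Mcm6.

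The first comparison asked how the replication genes differ when BCR-ABL takes the place of IL-3, and took the 2 arrays of BCR-ABL cells without IL-3 over the 1 parental array. Replication genes stood mostly above the parental array. Of 49 members, 15 passed as higher (30.6%) and 0 as lower in the limma fit, at an adjusted p under 0.05, against 5.19% of all 19935 genes called higher and 2.87% called lower. Both arrays lay above the parental array for 42 members, or 85.7%, against 27.9% of all genes, and below it for 4 members (Gins3, Gins4, Rfc2 and E2f2), against 42.0%. The median member difference was 0.36, and that of all genes was -0.04. The median over members was 0.32 on A and 0.40 on B. In whole cultures a larger share of cells in S phase and more transcript per cell cannot be told apart, and the kinase, its inducer, the line and the absence of IL-3 change together. After centring the arrays on their probe set medians, 4 members were called higher (Orc2, Rrm2, Orc1 and Cdc6), against 1.93% of all genes, and the median over members was 0.39. The other 11 lost the call, namely Orc6, Mcm10, Gins1, Gins2, Prim1, Pold2, Rfc3, Rfc4, Fen1, Tk1 and Uhrf1. Where these are said below to rise, the call depends on the scaling, although their differences were not smaller after centring.

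The second comparison asked what IL-3 adds once BCR-ABL is on, and took the 1 BCR-ABL array with IL-3 over the 2 without. The array with IL-3 lay below both A and B for 47 of 49 members, or 95.9%, against 25.5% of all genes, and above both for 0 members, against 39.9%. With arrays centred the count was again 47, against 34.1% of all genes. The median member difference was -0.37, and that of all genes was 0.03. No member was called by limma, where 1 gene of all 19935 (0.00502%) was called. At an unadjusted p under 0.05 there were 28 members lower and 0 higher, against 3.0% and 1.52% of all genes. The smallest adjusted p of a member was 0.362 (limma), so none of these differences is a call on its own. Here too a smaller share of cells in S phase and less transcript per cell cannot be told apart. The comparisons share arrays: A and B enter both, so a value that is high on A and B by measurement error raises a member in the first and lowers it in the second.

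**Figure D2:**
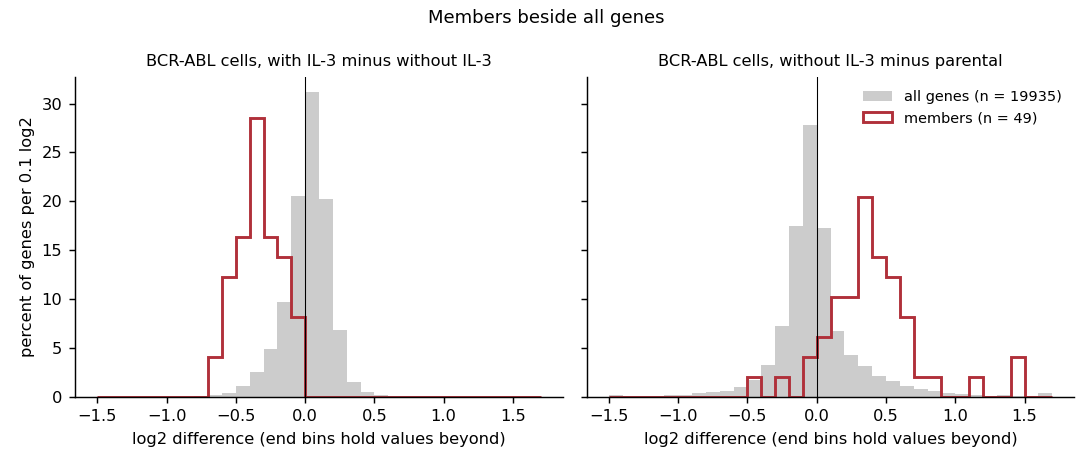
Histograms show the percent of genes in each step of 0.1 on the log2 scale for all 19935 genes (grey) and the 49 members (red outline). On the left is BCR-ABL with IL-3 minus without IL-3, where the members lie below 0 around a median of -0.37, and on the right is BCR-ABL without IL-3 minus parental, where most lie above 0 around a median of 0.36.

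**Figure D3:**
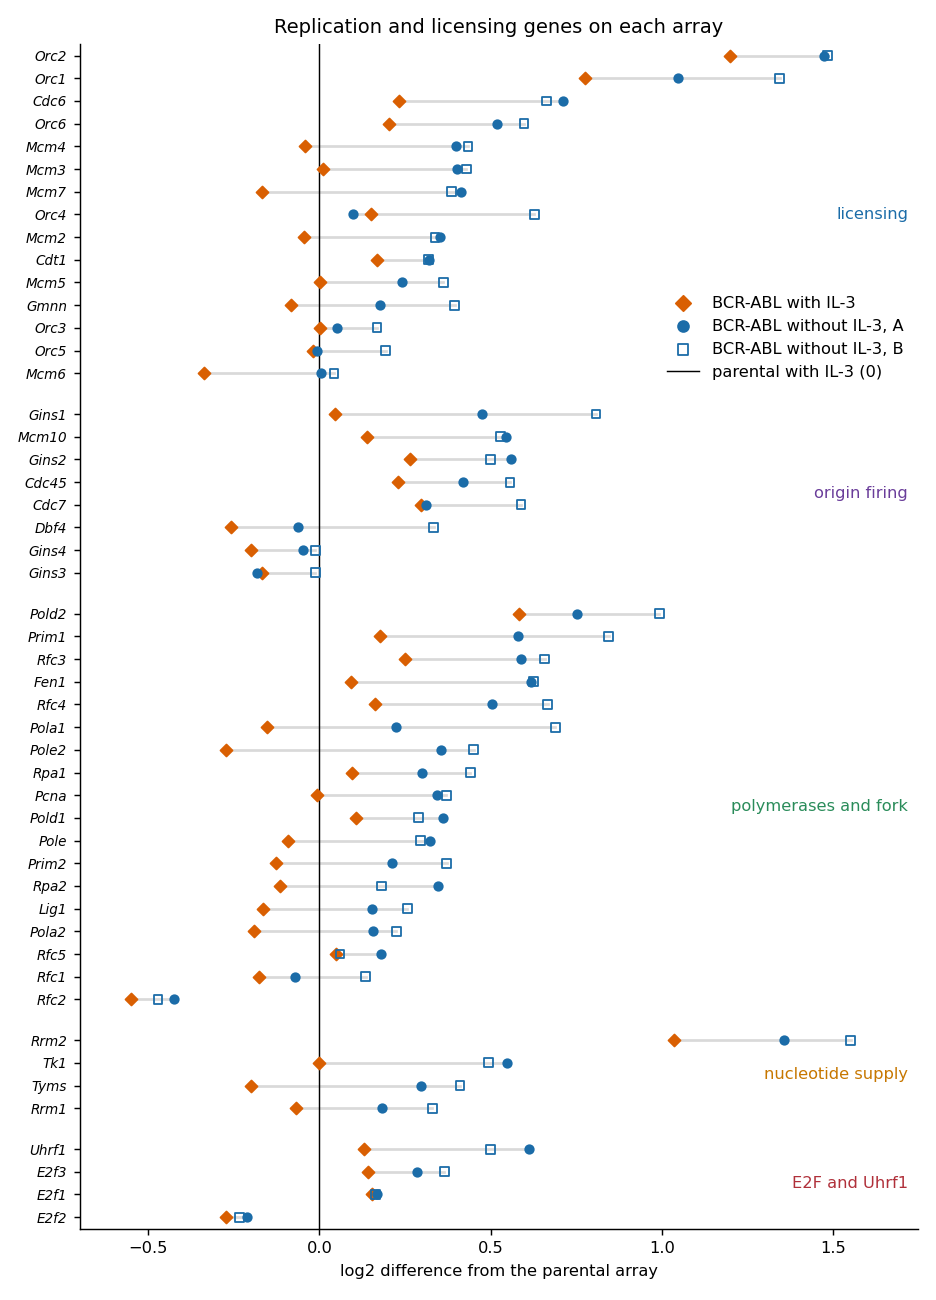
Rows are the 49 members by step of replication, and the horizontal axis is the log2 difference from the parental array (black line at 0). Orange diamonds are BCR-ABL cells with IL-3, filled circles array A and open squares array B of BCR-ABL cells without IL-3. The diamond is leftmost in all rows but Orc4 and Gins3.

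Among licensing genes 3 of the 6 subunits of the origin recognition complex were called higher without IL-3 than in parental cells, and the other subunits were not. That is 50%, against 5.19% of all genes. This complex of Orc1 to Orc6 marks the sites where replication can begin, and Orc1 is the subunit whose protein is removed and remade each cell cycle in human cells. Orc2 (chr1:58462771-58505113, GRCm38.p6) stood at 1.20 with IL-3, at 1.47 and 1.49 without IL-3 on A and B, and at 0 on the parental array. Orc1 (chr4:108575705-108616030) stood at 0.78 with IL-3 and at 1.05 and 1.34 without. Orc6 stood at 0.20 with IL-3 and at 0.52 and 0.60 without. All BCR-ABL arrays exceeded the parental array for these genes, and the array with IL-3 was the lowest of them. Without IL-3, Orc2 rose 2.79-fold over parental cells (log2 1.48, SE 0.15, limma adjusted p = 4.43e-06), the member with the largest difference and number 83 of all genes from the top. Orc1 rose 2.29-fold (log2 1.20, SE 0.16, adjusted p = 0.000108, limma) and Orc6 1.47-fold (log2 0.56, SE 0.15, adjusted p = 0.0295, limma).

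The other subunits showed less. Orc3 stood at 0.00072 with IL-3, and at 0.05 and 0.17 without. Orc5 stood at -0.018 with IL-3, and at -0.0055 and 0.19 without. For both genes the differences between groups were smaller than the gap between A and B, and neither passed the test. Orc4 stood at 0.15 with IL-3 and at 0.10 and 0.63 without, so that the array with IL-3 lay between A and B, whose gap of 0.53 was the widest of any member.

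Of the loading factors, Cdc6, the ATPase that brings the helicase to the origin complex, stood at 0.23 with IL-3 and at 0.71 and 0.66 without. It rose 1.61-fold in BCR-ABL cells without IL-3 over parental cells (log2 0.69, SE 0.15, limma adjusted p = 0.00718). Cdt1, its partner in loading, stood at 0.17 with IL-3 and at 0.32 and 0.32 without, and did not pass (adjusted p = 0.306, limma). Geminin (Gmnn), which blocks Cdt1 after S phase has begun, stood at -0.08 with IL-3 and at 0.18 and 0.40 without, and did not pass either.

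The 6 subunits of the MCM2-7 helicase were not called, 0 of 6 in either comparison. Over all genes 5.19% were called higher and 2.87% lower without IL-3 than in parental cells, and 0.00502% with against without IL-3. So 0 of 6 is near those shares. All 6 subunits lay above the parental array on both A and B. Without IL-3, Mcm2, Mcm3, Mcm4, Mcm5 and Mcm7 had differences from parental cells of 0.34, 0.42, 0.42, 0.30 and 0.40, with adjusted p from 0.125 to 0.363 (limma). Mcm6 was the exception at 0.02, with 0.0051 on A and 0.04 on B. On the array with IL-3, Mcm2 to Mcm5 lay near the parental level, at -0.04, 0.012, -0.04 and 0.0022. Mcm6 was at -0.34 and Mcm7 at -0.17 there. All 6 subunits had lower values with IL-3 than on A and on B, with mean differences between -0.30 (Mcm5) and -0.57 (Mcm7), and that of Mcm6 was -0.36. The promoter of Mcm6, printed above, holds 3 matches to the E2F element.

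Of the 8 genes of origin firing 3 were called higher without IL-3 than in parental cells, or 37.5%, against 5.19% of all genes. GINS is a ring of Gins1 to Gins4 that joins Cdc45 and MCM2-7 to form the active helicase. Gins1 stood at 0.05 with IL-3 and at 0.48 and 0.81 without. Gins2 stood at 0.26 with IL-3 and at 0.56 and 0.50 without. Both rose without IL-3 over parental cells, Gins1 by 1.56-fold (log2 0.64, SE 0.17, limma adjusted p = 0.0215) and Gins2 by 1.44-fold (log2 0.53, limma adjusted p = 0.0394). Neither call held with arrays centred on their probe set medians (limma adjusted p = 0.153 and 0.0729). Gins3 stood at -0.17 with IL-3 and at -0.18 and -0.012 without. Gins4 stood at -0.20 with IL-3 and at -0.05 and -0.012 without. On no BCR-ABL array did Gins3 or Gins4 exceed the parental array, whereas Gins1 and Gins2 did on all of them.

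Mcm10, which helps to activate the helicase, stood at 0.14 with IL-3 and at 0.54 and 0.53 without, and rose 1.45-fold over parental cells without IL-3 (limma adjusted p = 0.0361). Cdc45 stood at 0.23 with IL-3 and at 0.42 and 0.56 without, and missed the threshold (adjusted p = 0.0643, limma). The kinase Cdc7 stood at 0.30 with IL-3 and at 0.31 and 0.59 without. Its activating subunit Dbf4 stood at -0.26 with IL-3 and at -0.06 and 0.33 without, so A and B lay on opposite sides of the parental array.

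**Figure D4:**
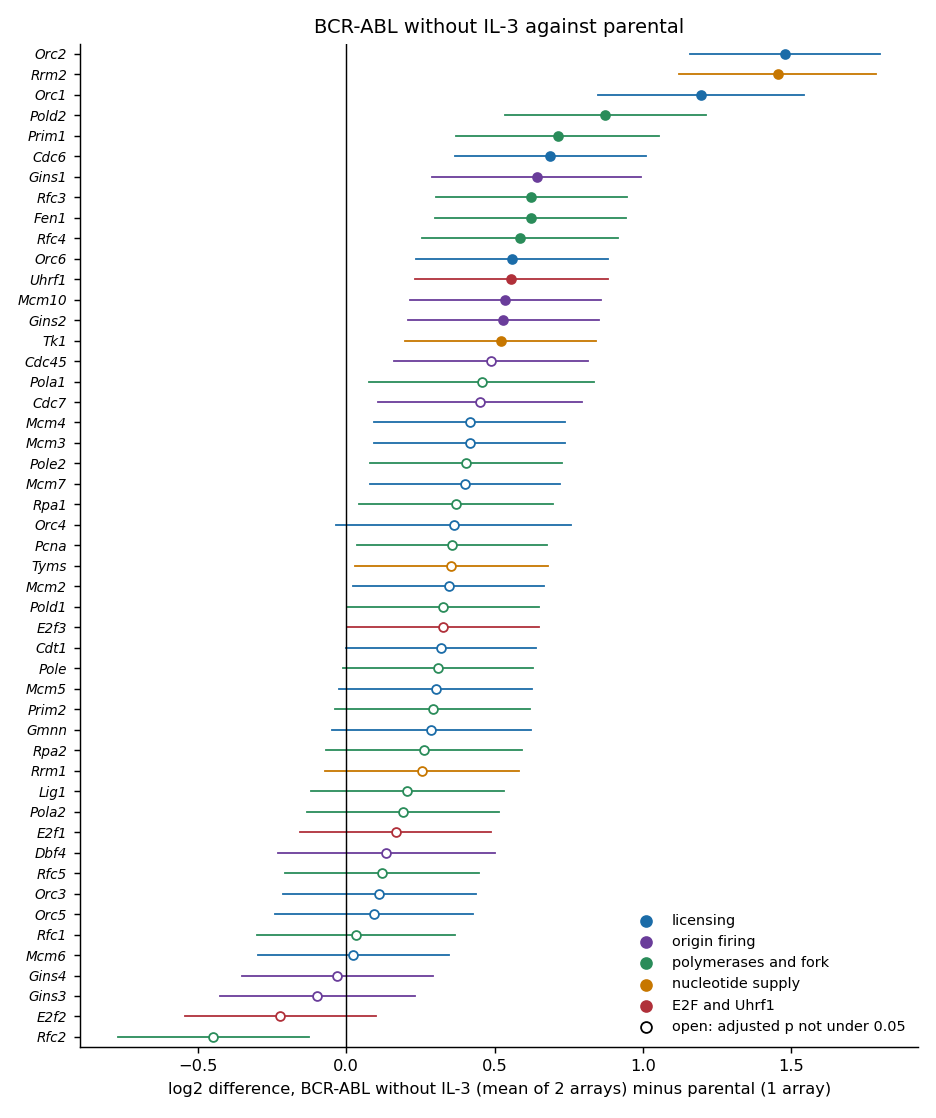
Points are log2 differences of BCR-ABL cells without IL-3 (mean of A and B) minus parental cells, with 95% confidence intervals from limma, coloured by step of replication and sorted. Filled points are the 15 members called at an adjusted p under 0.05, from Orc2 at 1.48 to Tk1 at 0.52, and Rfc2 is lowest at -0.45.

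Among polymerases and fork proteins 5 of 18 were called higher without IL-3 than in parental cells, or 27.8%, against 5.19% of all genes. All 18 were below both A and B on the array with IL-3, against 25.5% of all genes. Polymerase alpha-primase lays down the RNA-DNA primers. Its primase subunit Prim1 stood at 0.18 with IL-3 and at 0.58 and 0.85 without, and rose 1.64-fold over parental cells without IL-3 (log2 0.71, SE 0.16, limma adjusted p = 0.00862). Prim2 stood at -0.13 with IL-3 and at 0.21 and 0.37 without. The catalytic subunit Pola1 stood at -0.15 with IL-3 and at 0.22 and 0.69 without. Its partner Pola2 stood at -0.19 with IL-3 and at 0.16 and 0.23 without. Prim2, Pola1 and Pola2 did not pass against parental cells, and on the array with IL-3 all of them were below the parental array.

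Polymerase delta, which extends the lagging strand, had its accessory subunit Pold2 at 0.58 with IL-3 and at 0.75 and 0.99 without. Pold2 rose 1.83-fold without IL-3 over parental cells (log2 0.87, SE 0.16, limma adjusted p = 0.00162). The catalytic subunit Pold1 stood at 0.11 with IL-3 and at 0.36 and 0.29 without, and did not pass. Polymerase epsilon, which extends the leading strand, was not called in either comparison. Pole stood at -0.09 with IL-3 and at 0.32 and 0.30 without. Its accessory subunit Pole2 stood at -0.27 with IL-3 and at 0.36 and 0.45 without, a gap of -0.68 that was the widest of any member between cells with and without IL-3.

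Replication factor C loads the sliding clamp, and 2 of its 5 subunits were called higher without IL-3 than in parental cells, or 40%, against 5.19% of all genes. Rfc3 stood at 0.25 with IL-3 and at 0.59 and 0.66 without, and Rfc4 at 0.16 with IL-3 and at 0.50 and 0.67 without. Both rose over parental cells without IL-3, Rfc3 by 1.54-fold (log2 0.62, SE 0.15, limma adjusted p = 0.0145) and Rfc4 by 1.5-fold (log2 0.59, SE 0.16, limma adjusted p = 0.0244). Rfc2 stood at -0.55 with IL-3 and at -0.42 and -0.47 without, below the parental array on every BCR-ABL array, with a difference of -0.45 without IL-3 that did not pass (adjusted p = 0.0920, limma). The large subunit Rfc1 stood at -0.18 with IL-3 and at -0.07 and 0.14 without, and Rfc5 at 0.05 with IL-3 and at 0.18 and 0.06 without. The clamp itself, Pcna, stood at -0.0073 with IL-3 and at 0.34 and 0.37 without, and did not pass (adjusted p = 0.221, limma). Its pair of probe sets gave nearly the same values, 0.34 and 0.34 on A and 0.37 and 0.37 on B.

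Fen1 and Lig1 trim and join the fragments of the lagging strand. Fen1 stood at 0.09 with IL-3 and at 0.62 and 0.63 without, and rose 1.54-fold over parental cells without IL-3 (log2 0.62, SE 0.15, limma adjusted p = 0.0145). Lig1 stood at -0.16 with IL-3 and at 0.16 and 0.26 without. The single-strand binding subunits Rpa1 and Rpa2 stood at 0.10 and -0.12 with IL-3. Without IL-3, Rpa1 stood at 0.30 on A and 0.44 on B, and Rpa2 at 0.35 on A and 0.18 on B. Lig1, Rpa1 and Rpa2 did not pass.

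In nucleotide supply a single gene stood far above the rest. Rrm2 (chr12:24708254-24714146), the regulated subunit of ribonucleotide reductase, stood at 1.04 with IL-3 and at 1.36 and 1.55 without. It rose 2.74-fold over parental cells without IL-3 (log2 1.46, SE 0.16, limma adjusted p = 8.27e-06), number 88 of all genes from the top. Its partner Rrm1 stood at -0.07 with IL-3 and at 0.18 and 0.33 without, and did not pass. Thymidine kinase Tk1, of the salvage route, stood at -0.00041 with IL-3 and at 0.55 and 0.49 without, and rose 1.44-fold without IL-3 (limma adjusted p = 0.0428). Its pair of probe sets had values on A of 0.51 and 0.58, and with only the probe set of the wider A to B gap the adjusted p was 0.0572 (limma). Thymidylate synthase Tyms, of the de novo route, stood at -0.20 with IL-3 and at 0.30 and 0.41 without, and did not pass against parental cells.

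The 3 E2F genes among the members showed little, whereas E2f5 of the second list, described further on, was called higher than in parental cells. E2f1, an activator that is itself an E2F target, stood at 0.15 with IL-3 and at 0.17 and 0.17 without. E2f2 stood at -0.27 with IL-3 and at -0.21 and -0.23 without, and E2f3 at 0.14 with IL-3 and at 0.29 and 0.36 without. None of the 3 passed in either comparison, and their differences between cells with and without IL-3 were -0.011, -0.05 and -0.18. The pair of E2f3 probe sets disagreed on B, at 0.15 and 0.57. Uhrf1, which reads hemimethylated DNA behind the fork and brings in the maintenance methyltransferase, stood at 0.13 with IL-3 and at 0.61 and 0.50 without. It rose 1.47-fold over parental cells without IL-3 (log2 0.56, SE 0.15, limma adjusted p = 0.0314).

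Between BCR-ABL cells with and without IL-3 the widest gaps were spread over the steps. The differences, with 95% confidence intervals from limma, were -0.68 (-0.999 to -0.351) for Pole2, -0.61 (-0.99 to -0.23) for Pola1 and -0.60 (-0.95 to -0.24) for Gins1. For Mcm7 the difference was -0.57 (-0.89 to -0.25), for Tyms -0.55 (-0.88 to -0.23) and for Prim1 -0.54 (-0.88 to -0.19). Counted from the bottom of all 19935 genes, Pole2 was number 27, Pola1 number 53 and Gins1 number 59. By class the medians were -0.36 for licensing, -0.26 for firing, -0.38 for polymerases and fork, -0.47 for nucleotide supply and -0.12 for the E2F genes with Uhrf1. These intervals borrow the spread between A and B for the lone array with IL-3. On members B lay above A in 34 of 49 cases, against 33.8% of all genes, and the median member difference of the array with IL-3 was -0.31 from A and -0.39 from B.

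**Figure D5:**
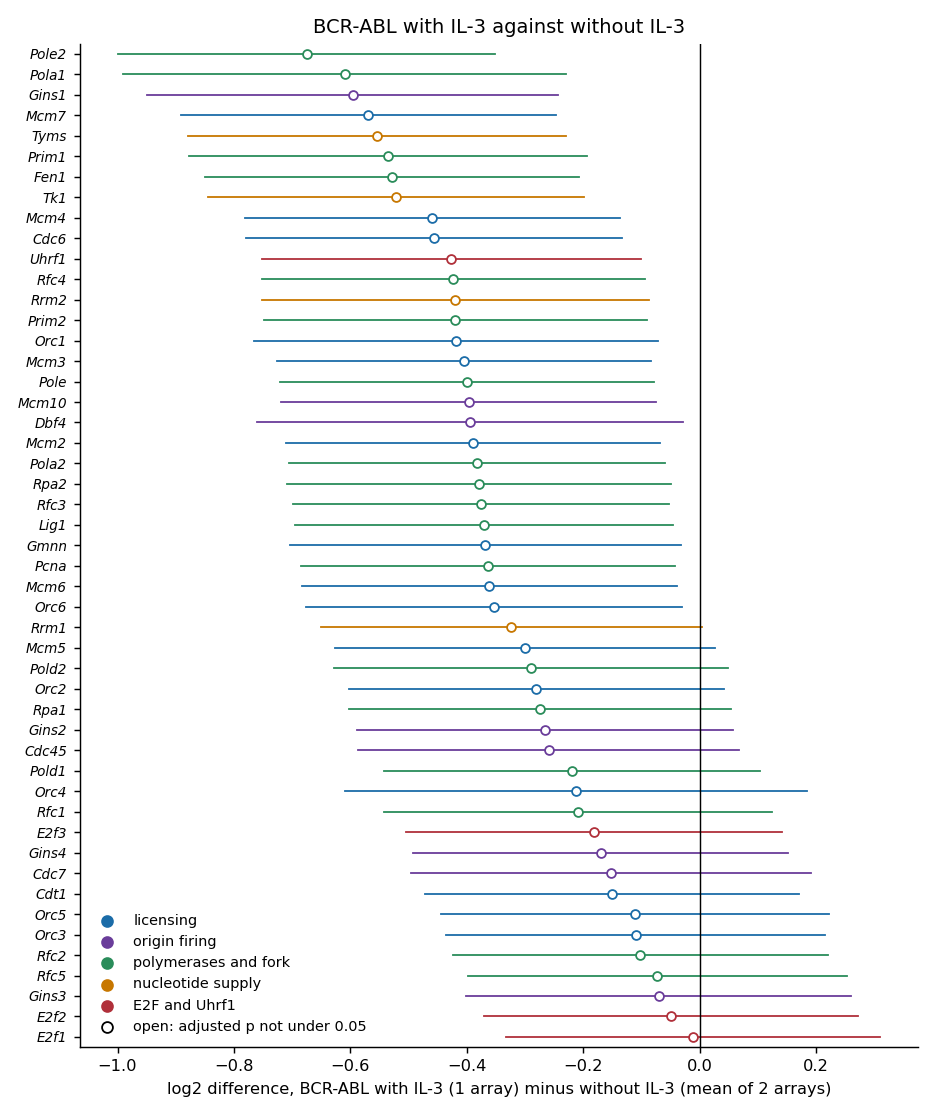
Points are log2 differences of BCR-ABL cells with IL-3 (1 array) minus BCR-ABL cells without IL-3 (mean of A and B), with 95% confidence intervals from limma. All 49 points lie below 0, from Pole2 at -0.68 to E2f1 at -0.011, and all are open because no member was called at an adjusted p under 0.05.

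The BCR-ABL array with IL-3 was also compared with the parental array, 1 array each, so values are given without a test. Each of these arrays also enters 1 of the other comparisons. The median member difference was 0.0022, and that of all genes was 0.0085. Above the parental array were 26 members, or 53.1%, against 52.6% of all genes, and below it 23, against 47.4%, so the members split as all genes did. Past 1.5-fold higher were 3 members, Orc2 at 1.20, Rrm2 at 1.04 and Orc1 at 0.78, against 3.30% of all genes, and 0 were past 1.5-fold lower, against 2.53%. Pold2, at 0.58, lay just short of that size.

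Values are given here by whether the promoter held the E2F element, with no test. In BCR-ABL cells without IL-3 the median difference from parental cells was 0.33 for the 17 genes with a match and 0.37 for the 24 without. Called higher were 4 genes with a match (Orc1, Cdc6, Rfc3 and Uhrf1), or 23.5%, and 9 without, or 37.5%, against 5.19% of all genes. Between cells with and without IL-3 the medians were -0.37 with a match and -0.36 without. Orc2 and Rrm2, the members with the widest differences from parental cells, had no match in the window. Pole2 (-0.68) and Pola1 (-0.61), the members with the widest differences between cells with and without IL-3, each held a match. Mcm6, with 3 matches, did not differ from parental cells by more than its error. The 8 genes with no promoter in the table had medians of 0.30 and -0.38.

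A second list of 57 replication genes, chosen by function with earlier results of these data known, gave 56 measured genes. The list is therefore no independent check on the members. In BCR-ABL cells without IL-3 10 of them were called higher than in parental cells, a share of 17.9% against 5.19% of all genes. There were 3 called lower, a share of 5.36% against 2.87%. The median was 0.22, and that of all genes was -0.04. With arrays centred on their probe set medians 6 were called higher (E2f5, Ccne1, Nasp, Cdc25a, Dscc1 and Chaf1b) and 0 lower, against 1.93% and 0.933% of all genes. E2f5, a repressor E2F, rose 2.56-fold (log2 1.35, SE 0.15, limma adjusted p = 1.41e-05), and stood at 1.25 with IL-3 and at 1.30 and 1.41 without. The cyclins Ccne1 and Ccne2, which start S phase with Cdk2, stood at 1.14 and 0.77, and Cdc25a, the phosphatase that activates Cdk2, at 0.86. Mtbp, which aids origin firing, was at 0.90, the fork protection gene Tipin at 0.87 and the clamp loader subunit Dscc1 at 0.71. The histone chaperones Nasp and Chaf1b were at 0.93 and 0.69, and all of these passed. Tfdp2, a dimerisation partner of E2F, fell by 0.82 (limma adjusted p = 0.00369, and 0.108 with arrays centred). Tfdp1, the other such partner, was called higher at 0.55, and Rbl2, a pocket protein that holds E2F repressors, and Pold4, the small subunit of polymerase delta, were called lower at -0.68 and -0.63. Tfdp1, Rbl2 and Pold4 lie outside the naming rule and were picked with their values in view.

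Between BCR-ABL cells with and without IL-3 the array with IL-3 was below both A and B for 48 of these 56 genes, or 85.7%, against 25.5% of all genes, with a median of -0.28 and 0 called (limma). At an unadjusted p under 0.05 there were 18 lower and 1 higher, against 3.0% and 1.52% of all genes. The 1 that was higher was Pold4, at -0.23 with IL-3 and at -0.66 and -0.60 without, a difference of 0.40 that did not pass after adjustment. Like the members, most of these genes had lower values on the lone array with IL-3. On that array 3 of the 56 lay above both A and B (Pold4, E2f4 and Samhd1), against 39.9% of all genes. Among 10 other E2F and pocket protein genes 7 were below both arrays, with a median of -0.13.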

How the data were processed

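RNA was labelled as sense-strand cDNA for Gene 1.0 ST arrays, per the labels' protocols. Values were deposited by the authors as log2 differences, with the parental column at 0 in all 28815 probe sets. The authors' background correction and normalization are not stated. The base was read as 2 because 99.8% of 84429 values with enough digits are whole multiples of 2 to the power -21, the spacing of single-precision log2 signals. Probe sets with an odd multiple, read as dim, included 0 members.

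The platform annotation gave 1 symbol for 21780 probe sets, several for 1605 and none for 5430, which left 19935 genes after averaging. A limma model with 3 group means (limma 3.58.1 under R 4.3.3) took all 4 arrays. Its 1 residual degree of freedom comes from A against B and was moderated to a prior of 16.4 degrees of freedom. The code was tried on simulated arrays drawn independently with equal spread. That trial cannot show how the model does if A and B are not separate cultures. Tests were two-sided, and Benjamini-Hochberg adjustment ran over all genes. The number of arrays limits precision.

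Members and lists were chosen with earlier results of these data known. The naming rule gave full statistics for up to 12 called members per comparison, the 6 widest differences where under 6 were called, and up to 10 called genes of the second list. Alternatives were scaling, filter, probe set rule, threshold, samples fitted, robust moderation and leaving out A or B.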

Additional observations from a re-analysis of the deposited data

How the results depend on the processing

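Centring each array on its median over probe sets gave a prior of only 4.21 degrees of freedom, against 16.4 in the main fit. The median member difference between BCR-ABL cells without IL-3 and parental cells was 0.39 with this centring and 0.36 without. It lowered the calls in BCR-ABL cells without IL-3 against parental cells to 4 members and 384 genes higher and 186 genes lower. Of the 15 called members 11 lost the call, with adjusted p from 0.0569 to 0.153 (limma). Centring on the median over genes, chosen after seeing the data, left 8 members, 637 genes higher and 299 lower, from 1035 and 572. In the second list of replication genes, for which all alternatives were added after seeing the data, the calls were 6 higher and 0 lower under the first centring and 7 and 1 under the second, against 10 and 3. At an adjusted p under 0.1 a member was called lower, 1 against 0, namely Rfc2. Fitting the 2 groups alone, robust moderation and leaving out dim probe sets kept 15 members called, and 1 probe set per gene 14. For cells with against without IL-3, genes called higher over all genes were 0 under either centring, 14 with 1 probe set per gene (and 14 lower) and 2 at an adjusted p under 0.1, against 1. Members called stayed at 0 under these alternatives. What causes these changes was not tested. Without A or without B, which leaves no test, the median member difference ranged from 0.32 to 0.40 against parental cells and from -0.39 to -0.31 with against without IL-3. In the 250 bases before the start alone, 11 members held the E2F element. No paired analysis was possible because the groups share fewer than 2 replicate numbers.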
